A study of Homo sapiens with 97 samples.

Results

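The experiment described here followed the RNA reached by a cytosolic APEX2 peroxidase while HEK293T cells were held in nocodazole for 3, 6, 9 or 30 min or for 2 h. It comprised 10 of the 97 libraries of the series, 2 at each of the 5 times, chosen by their labels alone: cytosol construct, nocodazole and peroxide. HEK293T is a human cell line of embryonic kidney origin. The cells stably expressed APEX2 fused to a nuclear export signal (NES), were given biotin-phenol for 30 min and then 1 mM H2O2 for 1 min, and the biotinylated RNA was enriched, poly(A) selected and sequenced. These are called labelled libraries. Unlabelled libraries came from the same steps without H2O2 and were used for NES at 3 and 30 min, 2 each. The outer mitochondrial membrane (OMM) construct has 10 labelled libraries at the same 5 times. All groups carried an APEX2 transgene and all received the drug. No vehicle-treated library was analysed here, and the untreated ones come from another table, so the first time, 3 min, served as the baseline. The labels give no dose of nocodazole, and do not say how the short drug times and the longer incubation with biotin-phenol were combined. The series calls the replicates biological; the p-values below measure the spread between these libraries.

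Nocodazole binds tubulin and depolymerizes microtubules, the hollow polymers of α- and β-tubulin along which organelles, vesicles and some RNAs travel through the cytoplasm. Depolymerization raises the pool of free tubulin, and cells answer with the autoregulation of tubulin: a ribosome-bound factor, TTC5, reads the first residues of nascent α- and β-tubulin and directs decay of the mRNA being translated. Loss of microtubules is also known to engage stress kinases and the actin-regulated transcription factor SRF.

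Depth was 16416712 to 33966883 counts in the labelled NES libraries. Levels are given as CPM, a gene's counts relative to its library's total after TMM scaling. Replicate libraries were closer at 3 and 6 min than later: the SD of the log2 difference between the replicates, over 11458 genes of at least 5 CPM, was 0.252 at 3 min, 0.223 at 6 min, 0.576 at 9 min, 0.564 at 30 min and 0.767 at 2 h. Between 18721 and 22597 genes had a count at 3 and 6 min, and between 15742 and 19172 from 9 min on. The cell line and the compartment fitted their labels in part. NEFL and NEFM, neurofilament genes expressed in this line, reached 39.2 to 59 and 63.9 to 96.9 CPM before TMM scaling, while PTPRC, HBB, KRT5 and MYH7, markers of other cell types, were without a count in all 10 libraries. The kidney genes PAX2 and LHX1 were lower, at 0.986 to 7.86 and 1.57 to 12 CPM. Of the other markers, ALB was at 0 in 9 libraries and COL3A1 in 3, with up to 4.51 CPM. The mitochondrial matrix transcript MT-CO1 was lower in labelled than in unlabelled NES libraries, by a log2 difference of -2.43 ± 0.22 (SE) at 3 min and -2.02 ± 0.21 at 30 min (edgeR's quasi-likelihood test, adjusted p = 2.79e-07 and 3.45e-05). The cytosolic mRNA of GAPDH was lower as well, by -0.95 ± 0.17 and -1.08 ± 0.17 (adjusted p = 0.00263 and 0.00198), and that of ACTB at 30 min, by -0.52 ± 0.13 (adjusted p = 0.0404). The cytosolic mRNA of EEF2 differed by 0.13 at 3 min and -0.30 at 30 min, and neither passed (same test, adjusted p = 0.793 and 0.283). For the nuclear RNAs MALAT1 and NEAT1 these differences were -1.08 to -1.93 and did not pass the test (adjusted p = 0.315 to 0.833). TUG1, also nuclear, went the other way, by 0.33 at 3 min and 0.63 at 30 min, and did not pass either (adjusted p = 0.605 and 0.119).

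The question of the course is which RNAs in reach of the cytosolic peroxidase changed as the treatment went on. A trend over the 5 ordered times, expressed as the fitted log2 change from 3 min to 2 h, passed an adjusted p of 0.05 for 15 of 19611 genes tested (0.0765%), 11 rising (0.0561%) and 4 falling (0.0204%), in edgeR's quasi-likelihood test over all 28 nocodazole libraries. The risers were PMAIP1, CYR61, JUN, RPS29, RPL24, RPS24, RCN2, RPS6, EIF5, ZNF146 and HSP90B1. The fallers were TUBB4B, TUBB, ACTN4 and TRIM28. An unadjusted trend p under 0.05 was found for 1319 of the 19611 genes, the share to set beside the list counts below. For all 15 both 2 h libraries lay on the same side of both 3 min libraries, and DESeq2 called all 15 in the same direction. Both follow from the same counts that gave the calls, so neither is separate support. Over all genes tested, both 2 h libraries lay above both 3 min libraries for 18.3% and below them for 29.2%. The spread in that fit is shared with unlabelled and OMM libraries, some of low complexity. Fitted on the 10 labelled NES libraries alone, the same trend was called for 1472 of 17903 genes (8.22%), 699 rising (3.9%) and 773 falling (4.32%), among them all 15. Counts from this fit are given below as those of the 10-library fit. For each gene list they are to be read beside the 3.9% rising and 4.32% falling over all genes. A test of any change over the 5 times, in whatever shape, passed for 16 genes in the 28-library fit (0.0816%), 10 of them with a called trend, and for 898 in the 10-library fit (5.02%). The other 6 were MT-RNR1, MT-RNR2, MT-CO3, SOX4, RPL30 and a gene ID without a symbol. The split of the trend calls also moved with scaling: with RLE size factors in place of TMM, 41 rose and 7 fell in the 28-library fit. The trend calls of PMAIP1, TUBB, EIF5 and RPS6 held under all 19 alternatives tried, while RCN2, ZNF146, RPS29, ACTN4 and CYR61 lost theirs in 10 to 14 of them. TRIM28 lost its call in 8, HSP90B1 in 7, RPS24 in 4, RPL24 in 2, and JUN and TUBB4B in 1 each.

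**Figure D1:**
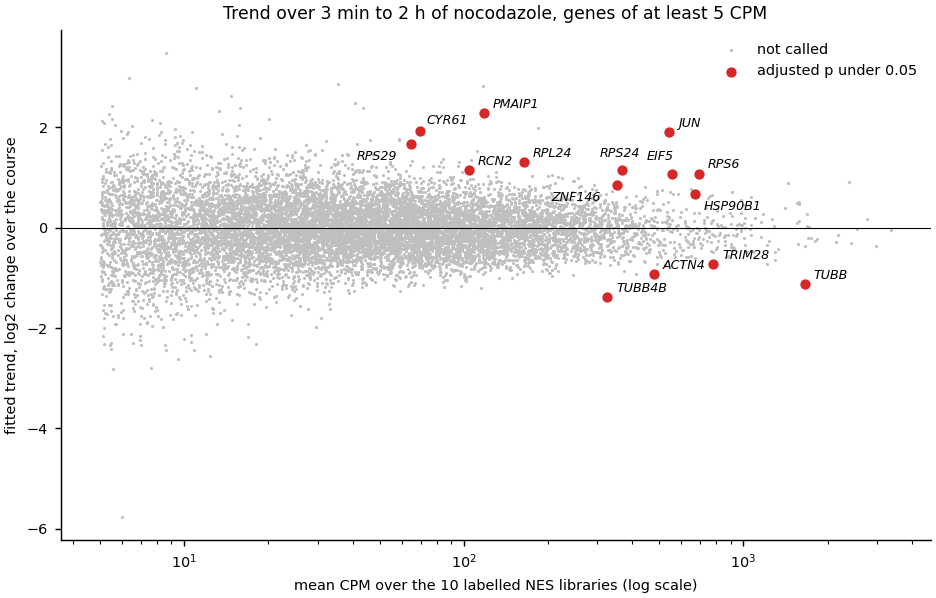
Fitted trend over 3 min to 2 h (log2 change, vertical axis) against mean level over the 10 labelled NES libraries (CPM, log scale) for 11458 genes of at least 5 CPM; red points are the 15 genes with an adjusted p under 0.05 in the 28-library fit. PMAIP1 has the largest rise among the called genes (2.28), TUBB4B the largest fall (-1.38), and uncalled genes of larger estimated change lie mostly at low levels.

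Tubulin is the drug's target, and among the tubulin mRNAs both main β-tubulins fell over the course, from a cause that was not tested. The first 30 bases of their coding sequences are shown because these encode the residues that autoregulation reads. They are from GENCODE 29 on GRCh38, written 5′ to 3′ on the coding strand, with the first 12 bases in capitals. TUBB starts at chromosome 6 position 30720507 (plus strand), TUBB4B at chromosome 9 position 137241361 (plus), TUBB6 at chromosome 18 position 12308293 (plus), TUBB4A at chromosome 19 position 6502212 (minus) and TUBA1B at chromosome 12 position 49131300 (minus).
TUBB: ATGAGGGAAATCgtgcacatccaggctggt
TUBB4B: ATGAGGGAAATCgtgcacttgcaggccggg
TUBB6: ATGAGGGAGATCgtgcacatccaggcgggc
TUBB4A: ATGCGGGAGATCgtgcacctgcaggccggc
TUBA1B: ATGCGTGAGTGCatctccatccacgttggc
TUBB and TUBB4B share their first 12 bases, and TUBA1A and TUBA1C have the same 30 bases as TUBA1B. Of 19543 annotated coding sequences, 6 (0.0307%) begin with the 12 capitals of TUBB when the last base of the third and of the fourth codon is left free. All 6 are β-tubulin genes or pseudogenes (TUBB, TUBB3, TUBB4B, TUBB6, TUBB8 and TUBB8P12). This was a search of bases, not of residues, and it fixed the second codon as AGG. TUBB4A, TUBB2A and TUBB2B have CGG, CGC and CGT there, which also encode arginine, and were therefore not counted.

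TUBB (ENSG00000196230), the most abundant β-tubulin here, had 2192 and 2133 CPM at 3 min, 2125 and 2064 at 6 min, 1595 and 1715 at 9 min, 1375 and 1379 at 30 min, and 1041 and 959.9 at 2 h. Each time lay below the one before it with no overlap, narrowly at 6 min and by wider steps after it. The trend was -1.13 ± 0.12 (log2 ± SE; edgeR's quasi-likelihood test, adjusted p = 3.86e-05), and 2 h against 3 min gave -1.11 ± 0.14 (adjusted p = 0.000245). TUBB4B (ENSG00000188229), a β-tubulin of most tissues, had 453 and 469 CPM at 3 min, 379.6 and 409 at 6 min, 310.2 and 362 at 9 min, 288 and 259.7 at 30 min, and 150.1 and 183 at 2 h. Here too each time lay below the one before it. The trend was -1.38 ± 0.19 (adjusted p = 0.00134, same test). Both trends were present at the OMM as well, with -0.97 for TUBB and -1.15 for TUBB4B (adjusted p = 8.29e-05 and 0.00199), and the difference between the NES and OMM trends did not pass for either (both adjusted p = 1, with differences of -0.16 ± 0.17 and -0.24 ± 0.27).

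Unlabelled NES libraries give the level in the RNA carried along without peroxide. TUBB had 1942 and 2031 CPM there at 30 min, against 2542 and 2198 at 3 min, a log2 difference of -0.25 that did not pass (adjusted p = 0.642). Untreated labelled NES libraries, from another table and scaled only to their totals, had 2176 and 2110.2 CPM of TUBB and 514 and 463 of TUBB4B, values near those of the 3 min libraries. Not every called gene was near its 3 min level there. RPS6 had 1409 and 1147 CPM in the untreated libraries, against 455 and 426 at 3 min, above every labelled NES library of the course. RPL24 had 321 and 260.1 CPM, against 104 and 94.5, and PMAIP1 88.1 and 80.7, against 56 and 54. EIF5, with 261 and 283 CPM against 287 and 263, was near. These are set side by side and were not compared.

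Of 7 β-tubulin genes tested, TUBB and TUBB4B fell in the 28-library fit, and 4 fell in the 10-library fit. The other 2 were TUBB6, with means of 32.7 ± 6.87 CPM at 2 h and 59.3 ± 7.65 at 3 min (SD, n = 2 each; trend -0.91 ± 0.22, adjusted p = 0.0183), and TUBB4A, with 15.2 ± 2.63 and 32.7 ± 2.5 CPM (trend -1.16 ± 0.29, adjusted p = 0.0195). In the 28-library fit their adjusted p-values were 0.733 and 0.912. The median trend over the 6 β-tubulins of at least 5 CPM was -1.05, beside -0.0243 over all genes of that level. No α-tubulin was called in the 28-library fit. TUBA1B, the main one, had 1457 and 1514 CPM at 3 min, 1469 and 1491 at 6 min, 1211 and 1609 at 9 min, 1171 and 1149 at 30 min, and 936 and 969 at 2 h. Both 2 h libraries and both 30 min libraries lay below all of 3 and 6 min, and the 9 min libraries spanned that range. Its trend of -0.65 ± 0.18 had an adjusted p of 0.269 in the 28-library fit, 1.9e-07 in that fit without a filter on low counts, and 0.00216 in the 10-library fit. TUBA1A and TUBA1C fell in the 10-library fit too, so that all 3 α-tubulins of at least 5 CPM did. In the 28-library fit 2 of the 5 tested had an unadjusted p under 0.05, and DESeq2 called none. Tubulin genes have near-identical copies and pseudogenes, and how reads were split between them is uncertain.

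**Figure D2:**
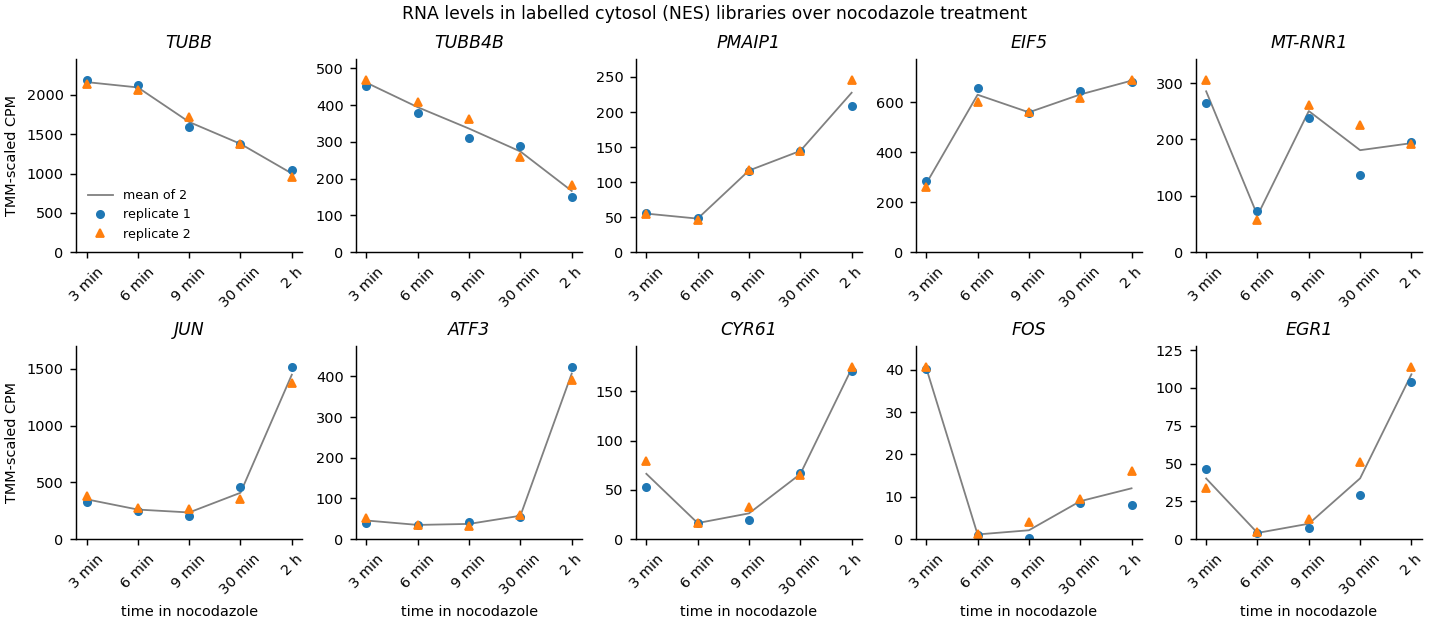
Level (CPM, linear axis from 0) at each time for 10 genes; circles and triangles are replicates 1 and 2 of the labelled NES libraries and the line joins the means of 2. TUBB and TUBB4B step down over the course, JUN and ATF3 stand out at 2 h, EIF5 is high from 6 min on, and FOS and EGR1 are low at 6 min.

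Among 15 genes of tubulin folding and autoregulation the 28-library fit called none (4 had an unadjusted p under 0.05, and DESeq2 called 1). In the 10-library fit 3 rose and 1 fell. TBCA, a chaperone that binds β-tubulin after its release from the chaperonin, averaged 71.2 ± 5.37 CPM at 2 h and 33.2 ± 2.87 at 3 min (SD, n = 2 each), with a trend of 1.28 ± 0.18 (adjusted p = 0.000968). PFDN5 and VBP1, subunits of the prefoldin that hands nascent tubulin to the chaperonin, rose by 1.06 and 0.87. TBCD, which acts on the αβ dimer, fell by 0.72. TTC5, named after its values were seen, had 48.3 ± 11.4 CPM at 2 h and 41.3 ± 4.3 at 3 min, with a trend of 0.20 ± 0.21 (adjusted p = 0.637). The CCT chaperonin subunits had a median trend of -0.0685, whose sign turned with RLE scaling (0.006). Of 53 motor and microtubule-binding genes, the 10-library fit called 5 higher and 9 lower, with falls in DCTN1 (-0.74), the large subunit of dynactin, and MAP4 (-0.45), which stabilizes microtubules, and a rise in KIF5B (0.51), the heavy chain of kinesin-1. Of 52 spindle and mitosis genes it called 2 higher and 9 lower. Over all genes that fit called 3.9% higher and 4.32% lower. CDC20, the mitotic activator of the anaphase-promoting complex, averaged 112 ± 30.4 CPM at 2 h and 187 ± 12.8 at 3 min, and CDK1 rose by 0.73. The 28-library fit called no gene of these lists. An unadjusted p under 0.05 was found for 3 motor genes and 5 spindle genes, and for 1319 of all 19611 genes tested. The median trends were -0.011 for the motor genes (0.063 with RLE scaling) and -0.101 for the spindle genes.

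PMAIP1 had the largest called rise. PMAIP1 (ENSG00000141682), which encodes the pro-apoptotic BCL2 antagonist NOXA, had 56 and 54 CPM at 3 min, 49.3 and 46.4 at 6 min, 116 and 117 at 9 min, 144 and 145 at 30 min, and 209 and 246 at 2 h. The 6 min libraries lay below those of 3 min, and each time after 6 min lay above the one before it, with no overlap. The trend was 2.28 ± 0.24 (edgeR's quasi-likelihood test, adjusted p = 3.86e-05), and at the OMM it was 2.19 (adjusted p = 2.39e-05). PMAIP1 was also high in unlabelled libraries, with 197 and 248 CPM at 30 min, against 71.5 and 84.5 at 3 min (log2 difference 1.51, adjusted p = 0.0506). Of the 20 p53 targets tested, PMAIP1 was the one called (0.0561% of all genes rose), and the list's median trend was -0.0479 (0.026 with RLE scaling).

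JUN (ENSG00000177606), an immediate early gene for a subunit of the AP-1 transcription factor, had 323 and 379 CPM at 3 min, 246 and 275 at 6 min, 203 and 267 at 9 min, 460.4 and 357 at 30 min, and 1519.5 and 1379 at 2 h. The 2 h libraries stood far above all the others, and those of 6 and 9 min lay lowest. Against 3 min the 2 h level was higher by 2.05 ± 0.24 (log2; adjusted p = 0.000201), and the trend was 1.90 ± 0.21 (adjusted p = 4.23e-05). The rise was present at the OMM (trend 2.76, adjusted p = 2.12e-07). ATF3, a stress-induced transcription factor, had 40.5 and 51.1 CPM at 3 min, 34.1 and 35.7 at 6 min, 41.6 and 33.2 at 9 min, 54.9 and 60.1 at 30 min, and 424 and 390.5 at 2 h. Its 2 h libraries did not overlap any other. The trend of 2.81 ± 0.88 did not pass in the 28-library fit (adjusted p = 0.484; 0.0474 with DESeq2, and 1.21e-06 without a filter on low counts) and passed in the 10-library fit (2.82 ± 0.16, adjusted p = 9.61e-08). Between 2 h and 3 min alone, 5 genes passed in the 28-library fit (0.0255%): JUN, PMAIP1 and EIF5 rose (0.0153%), and TUBB and TUBB4B fell (0.0102%). DESeq2 called 28 higher and 70 lower, and the PMAIP1 call was lost without either 3 min library. A fit on these 4 libraries alone called 9 genes higher (0.0554%) and 1 lower (0.00615%). The higher ones were NR4A3 (3.77 ± 0.27), ATF3 (3.16 ± 0.16), NR4A1 (2.82 ± 0.15), JUN, PMAIP1, ZBTB10 (2.01 ± 0.14), IFRD1 (1.95 ± 0.16), TSC22D3 (1.36 ± 0.10) and EIF5, with adjusted p from 0.0221 to 0.0423. TUBB was the lower one. NR4A1 and NR4A3 encode orphan nuclear receptors of the immediate early class, and TSC22D3 a leucine zipper protein induced by glucocorticoids.

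Before that rise the immediate early genes were low at 6 min. Both 6 min libraries lay below both 3 min libraries for 41 of the 60 genes of the list and above them for 2, where the same held for 17.3% and 19.9% of all 19611 genes tested. At 9 min the counts were 36 below and 4 above (26.6% and 18.7% of all genes), at 30 min 33 and 5 (27.8% and 19%), and at 2 h 23 and 25 (29.2% and 18.3%). Against 6 min, 29 lay higher at 2 h and 12 lower (19.7% and 33.4% of all genes). FOS, the AP-1 partner of JUN, had 40.1 and 40.7 CPM at 3 min, 0.936 and 1.27 at 6 min, 0.226 and 3.95 at 9 min, 8.53 and 9.37 at 30 min, and 7.99 and 16 at 2 h. EGR1, a zinc finger transcription factor of the same class, had 46.1 and 34.1 CPM at 3 min, 3.78 and 4.4 at 6 min, 7.37 and 13 at 9 min, 29.4 and 51 at 30 min, and 104 and 114 at 2 h. FOS stayed below its 3 min level throughout, while EGR1 passed it at 2 h.

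In the 28-library fit 3 genes passed between 6 and 3 min (0.0153%), none of them of this list: EIF5 rose (0.0051%) and the mitochondrial rRNAs MT-RNR1 and MT-RNR2 fell (0.0102%). The call of EIF5 at 6 min was lost without replicate 1 or 2 of 3 min or replicate 1 of 6 min. The fit on the 4 libraries of 3 and 6 min, where replicates were closest, called 6 genes higher (0.0356%) and 41 lower (0.243%). Of the 58 immediate early genes tested there, 19 fell. Among these the largest falls were those of FOS (-5.19 ± 0.23, edgeR's quasi-likelihood test, adjusted p = 4.07e-12), EGR3 (-4.29 ± 0.43), EGR1 (-3.30 ± 0.20), IER3 (-2.25 ± 0.29), GADD45B, FOSB and DUSP1, a phosphatase that turns off MAP kinases. IER2 and RHOB fell as well. Outside the list, the fallers included CYR61 (-2.04 ± 0.18) and SOX4, beside both mitochondrial rRNAs. For FOS and EGR1 the 28-library estimates were of the same size (-5.19 ± 1.31 and -3.29 ± 1.32) with an adjusted p of 1. The OMM libraries were low at both times: FOS had 2.49 and 2.06 CPM there at 6 min, against 3.84 and 5.24 at 3 min, and EGR1 had 6.1 and 3.26 CPM, against 3.06 and 4.3. Untreated NES libraries had 38.2 and 25.3 CPM of FOS and 87.8 and 72.8 of EGR1. Unlabelled NES libraries had 15.3 and 34.5 CPM of FOS at 30 min, against 38.3 and 64.1 at 3 min.

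Over the whole course, JUN was the 1 of 60 immediate early genes that rose in the 28-library fit (6 had an unadjusted p under 0.05, 5 with a rise and 1 with a fall), and of 59 tested in the 10-library fit 12 rose and 1 fell. The 12 were ATF3, NR4A3, EGR1, NR4A1, GADD45A, NR4A2, JUN, JUND, FOSB, FOSL2, TRIB1 and RHOB, and NFKBIA fell. NR4A1 shows the shape of the late group: it had 20.1 and 20 CPM at 3 min, 16.3 and 19.3 at 6 min, 17 and 17.3 at 9 min, 17.9 and 26.9 at 30 min, and 149 and 133 at 2 h. FOSB, with 24.9 and 34.3 CPM at 3 min, 7.92 and 6.22 at 6 min and 85.8 and 75.2 at 2 h, dipped and then rose. DUSP1 dipped and came back, with 66.9 ± 3.73 CPM at 2 h and 53.8 ± 8 at 3 min (SD, n = 2 each), and did not pass as a trend (10-library fit, adjusted p = 0.389). CYR61 (ENSG00000142871), a matricellular protein and target of SRF and YAP, had 52.8 and 79.8 CPM at 3 min, 16.7 and 15.9 at 6 min, 19.6 and 32.7 at 9 min, 67.1 and 65 at 30 min, and 171 and 175 at 2 h. It was lowest at 6 min and highest at 2 h, and its trend was 1.92 ± 0.35 (adjusted p = 0.0358). DDIT4, a stress-induced inhibitor of mTORC1, went the other way, at 12.9 ± 5.38 CPM at 2 h and 38.3 ± 0.39 at 3 min (10-library fit, adjusted p = 0.0033).

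The promoters of JUN and EGR1 are shown because both genes were low at 6 and 9 min and high at 2 h, JUN by a smaller dip; no binding was measured. They are 300 bases each from RefSeq's table on GRCh38.p14, JUN at chr1:58783998-58784297 on the minus strand and EGR1 at chr5:138465229-138465528 on the plus strand, written 5′ to 3′ on the gene's strand. Capitals mark matches to the letters searched.
JUN: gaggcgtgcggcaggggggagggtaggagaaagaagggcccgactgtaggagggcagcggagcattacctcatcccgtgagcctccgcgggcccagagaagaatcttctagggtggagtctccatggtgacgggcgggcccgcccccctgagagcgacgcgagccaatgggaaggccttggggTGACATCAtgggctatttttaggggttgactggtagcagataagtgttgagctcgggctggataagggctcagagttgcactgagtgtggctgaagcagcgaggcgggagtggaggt
EGR1: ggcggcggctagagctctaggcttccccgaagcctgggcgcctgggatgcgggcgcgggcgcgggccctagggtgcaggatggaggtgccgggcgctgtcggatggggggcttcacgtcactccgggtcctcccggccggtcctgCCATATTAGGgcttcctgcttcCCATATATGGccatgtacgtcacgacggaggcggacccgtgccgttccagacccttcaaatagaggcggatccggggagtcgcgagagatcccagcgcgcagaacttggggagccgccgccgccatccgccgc
In JUN the capitals are the letters TGACATCA at positions -67 to -60, a match to TGACNTCA, the form bound by CREB and ATF family factors. In EGR1 they are 2 CArG boxes, the SRF motif, at -105 to -96 and -83 to -74, counted with RefSeq's gene start as position 1. The GENCODE 29 model of JUN starts further upstream, so that the whole JUN window lies inside it. The motifs TGACNTCA, TGANTCA, the CArG box and TATAAA were searched on both strands. Of the 60 listed immediate early genes 45 had a promoter in the table. Among these, 9 held TGACNTCA (20%, against 7.72% of 35116 promoters of all genes), 12 held TATAAA (26.7%, against 11.5%), and 2 each held TGANTCA (4.44%, against 7.71%) and a CArG box (4.44%, against 1.29%). A match is a description of letters in this window and says nothing of binding.

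EIF5 had changed by the second time and stayed there. EIF5 (ENSG00000100664), the translation initiation factor that acts on eIF2 during start codon selection, had 287 and 263 CPM at 3 min, 659 and 603 at 6 min, 558 and 563 at 9 min, 645 and 619 at 30 min, and 684 and 691 at 2 h. The 3 min libraries lay far below the rest, which were close together. Each later time differed from 3 min in the 28-library fit, with 1.20 ± 0.16 at 6 min (adjusted p = 0.000991), 1.03 at 9 min (0.0209), 1.20 at 30 min (0.00192) and 1.32 at 2 h (0.000201). EIF5 was the 1 gene called at 9 min and the 1 gene called at 30 min (each 0.0051%), where 382 and 338 genes had an unadjusted p under 0.05. Fits on 4 libraries called EIF5 alone for 30 against 3 min (0.00622%) and no gene for 9 against 3 min. The 9 min call was also lost without the libraries of low complexity, without replicate 2 of 3 min or without replicate 2 of 9 min, and the 30 min call without either 3 min library. Unlabelled libraries had 481 and 606 CPM at 30 min, against 267 and 213 at 3 min (log2 difference 1.18, adjusted p = 0.00253). The OMM libraries had 337 and 407 CPM at 3 min, 415 and 403 at 6 min and 624 and 599 at 9 min. Of 41 translation factors EIF5 was the one called, and the list's median trend was 0.0587.

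The mitochondrial rRNAs made a step down at 6 min that was gone at 9 min. MT-RNR1, the small mitochondrial rRNA, had 265 and 306 CPM at 3 min, 73.3 and 56.9 at 6 min, 239 and 262 at 9 min, 137 and 225 at 30 min, and 195 and 192 at 2 h. The 6 min libraries lay far below all others. Those of 3 min lay above all others, narrowly so beside 9 min. The 6 min level was lower than that of 3 min by -2.13 ± 0.23 (log2; edgeR's quasi-likelihood test, adjusted p = 7.99e-05), and the 9 min level was higher than that of 6 min by 1.94 ± 0.23 (adjusted p = 0.000285). MT-RNR2, the large rRNA, was likewise lower at 6 min than at 3 min and higher again at 9 min (-1.25 ± 0.17 and 1.44 ± 0.17, same test, adjusted p = 0.00177 and 0.000285). The OMM libraries had 137 and 174 CPM of MT-RNR1 at 6 min, against 322 and 368 at 3 min. Unlabelled NES libraries had 838 and 643 CPM at 30 min, against 2279.6 and 2109 at 3 min. Nuclear copies of mitochondrial sequence make these values uncertain.

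Between 6 and 9 min 18 genes passed (0.0918%), 17 higher (0.0867%) and 1 lower (0.0051%), a comparison added after the data were seen. The count was 0 in a fit on the 4 libraries of these times, 10 with the replicate block, 5 without the libraries of low complexity, 6 and 2 without replicates 1 and 2 of 6 min, and 3 without replicate 2 of 9 min. They included 5 mRNAs of cytosolic ribosomal proteins, 5 mitochondrial mRNAs and both mitochondrial rRNAs. RPS6 (ENSG00000137154), a protein of the small ribosomal subunit, had 455 and 426 CPM at 3 min, 453 and 468 at 6 min, 829.7 and 971 at 9 min, 785 and 864 at 30 min, and 829.7 and 844 at 2 h. The early and the late libraries formed separate ranges. Its trend was 1.08 ± 0.16 (adjusted p = 0.00446). RPL24 had 104 and 94.5 CPM at 3 min, 80.3 and 89.8 at 6 min, 205 and 279 at 9 min, 175 and 204 at 30 min, and 231 and 178 at 2 h, with a trend of 1.3 ± 0.21 (adjusted p = 0.00685). RPS24 (1.15 ± 0.20, adjusted p = 0.0164) and RPS29 (1.66 ± 0.32, adjusted p = 0.0456) rose too. For RPS29 the means were 86.7 ± 5.8 CPM at 2 h and 33 ± 7.23 at 3 min.

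Of 85 cytosolic ribosomal protein genes tested, 4 rose in the 28-library fit, and 43 rose and 2 fell, RPS26 and RPL7L1, in the 10-library fit. Their median trend was 0.621, and the median change from 6 to 9 min was 0.652. Together they held 1.68 to 1.89% of counts at 3 and 6 min and 2.2 to 2.94% from 9 min on. Of 13 mitochondrial mRNAs the 28-library fit called none as a trend (10 had an unadjusted p under 0.05, and DESeq2 called 6), and 9 rose in the 10-library fit. MT-CO1 had 2106 and 1395 CPM at 3 min, 1590.2 and 1401 at 6 min, 2692 and 3708 at 9 min, 2417 and 2838 at 30 min, and 2789.7 and 2966 at 2 h, so that the early and late ranges did not overlap. Its trend of 0.90 ± 0.19 had an adjusted p of 0.0572. The mitochondrial mRNAs held 0.623 to 0.975% of counts at 3 and 6 min and 0.965 to 1.43% later. Nuclear-encoded genes of the respiratory chain had a median trend of 0.379, with 21 of 84 higher and 1 lower in the 10-library fit, among them COX6A1 (1.34), COX6C (1.25) and NDUFA1 (1.22), small subunits of complexes IV and I. Among snoRNA host genes 3 of 23 rose in that fit, SNHG1, SNHG5 and TAF1D. Ribosomal protein genes have many processed pseudogenes, and their reads may be split.

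Several properties of the libraries also differed between 6 and 9 min, and their part in these results was not tested. Fewer genes were detected from 9 min on, with ranges that overlapped slightly, as given above. In unlabelled NES libraries the ribosomal protein genes held 3.8 to 5.21% of counts and mitochondrial mRNAs 3.26 to 4.52%, above every labelled library. For ribosomal protein genes, the shares in labelled libraries of 9 min and later lay between those of 3 and 6 min and the unlabelled ones. Mitochondrial mRNAs did so too except in replicate 1 of 30 min, whose 0.965% lay below the 0.975% of replicate 1 of 3 min. Other shares did not: β-tubulins held 0.263 to 0.285% at 3 and 6 min, 0.126 to 0.234% later and 0.211 to 0.329% in unlabelled libraries, and nuclear long noncoding RNAs 0.0982 to 0.116%, 0.121 to 0.157% and 0.0802 to 0.118%. Of the 85 ribosomal protein genes 61 were lower in labelled than in unlabelled libraries at 3 min and 53 at 30 min. Of all genes tested, 2.14% differed between labelled and unlabelled at 3 min (0.642% higher and 1.49% lower) and 1.47% at 30 min (0.296% higher and 1.18% lower). These are 419 and 289 genes, and both counts were 0 in fits on the 4 libraries compared. Leaving out 1 library moved that of 3 min down to 165 and 137 (labelled replicates 1 and 2) or 157 (unlabelled replicate 2), and that of 30 min to 51 and 55 (labelled replicates 1 and 2) or 1569 and 32 (unlabelled replicates 1 and 2). The trend also followed GC content. In 5 bins of equal size, from the lowest GC to the highest, the median trend over 11434 genes was 0.284, 0.132, -0.019, -0.229 and -0.396. RPS6, RPL24, EIF5 and HSP90B1 lie in bin 2, TUBB and JUN in bin 4, and TUBB4B, ACTN4 and TRIM28 in bin 5. In a bulk library a larger share of one RNA and a smaller share of others cannot be told apart.

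**Figure D3:**
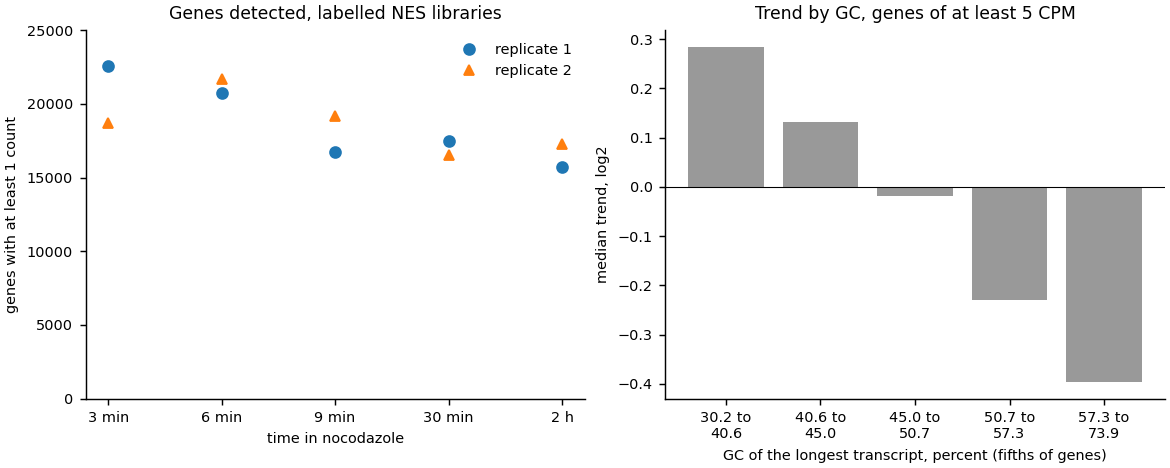
Left, genes with at least 1 count in each of the 10 labelled NES libraries, by time; right, median trend (log2) in 5 equal bins of GC content of the longest transcript, over 11434 genes. From 9 min on 15742 to 19172 genes were detected, against 18721 to 22597 before, and the median trend goes from 0.284 in the lowest GC bin to -0.396 in the highest.

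The remaining fallers were ACTN4 and TRIM28. ACTN4, an actin crosslinking α-actinin, had 628 and 607 CPM at 3 min, 659 and 689 at 6 min, 393 and 353 at 9 min, 378 and 289 at 30 min, and 386 and 396 at 2 h (trend -0.93 ± 0.18, edgeR's quasi-likelihood test, adjusted p = 0.0456). TRIM28, a corepressor of zinc finger repressors, averaged 599 ± 31.9 CPM at 2 h and 919 ± 13.6 at 3 min (SD, n = 2 each; trend -0.73 ± 0.13, adjusted p = 0.0247). For both genes all libraries of 9 min and later lay below all earlier ones. In the SRF and actin list, with 42 genes tested, CYR61 rose and ACTN4 fell, and the median trend was near 0 (-0.003, and 0.071 with RLE scaling). Glycolytic enzymes had a median trend of -0.404. The 28-library fit called none of 20 (8 had an unadjusted p under 0.05, DESeq2 called 2 lower), and the 10-library fit called 7 lower. PKM, the last enzyme of the pathway, had means of 1014 ± 10.6 CPM at 2 h and 1479 ± 68.4 at 3 min (28-library fit, adjusted p = 0.0788). ACTB and GAPDH, often used as references, had trends of -0.26 ± 0.12 and -0.35 ± 0.16 that did not pass (both adjusted p = 0.733).

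Cytosolic heat shock genes showed no joint rise. In the 10-library fit 3 of 25 rose and 6 fell, where 3.9% of all genes rose and 4.32% fell. Falls were seen in DNAJB1 (-0.96), STIP1 (-0.50) and HSPA8 (-0.33). The 28-library fit called none (10 had an unadjusted p under 0.05, DESeq2 called 1 lower). HSPA1A had at most 3 counts in a labelled NES library and was not tested. Among 44 splicing factors and kinases the 10-library fit called 11 higher and 3 lower, with the largest rises in RSRP1 (2.05), CLK4 (1.67), CLK1 (1.39) and RSRC2 (1.35). CLK1 and CLK4 are kinases of SR proteins. RSRC2 averaged 173 ± 22.5 CPM at 2 h and 69.8 ± 3.87 at 3 min. The nuclear long noncoding RNAs of at least 5 CPM had a median trend of 0.573, and 4 of 16 rose in the 10-library fit. MALAT1, with a mean of 19.1 CPM over the course, was one of them (adjusted p = 0.0268), against an adjusted p of 0.986 in the 28-library fit. Histone genes (0.519), mitochondrial ribosomal proteins (0.255) and proteasome subunits (0.156, with 2 higher and 5 lower in the 10-library fit) had median trends above 0, and sterol synthesis genes (-0.119), mitochondrial matrix proteins (-0.108) and ZNF genes (-0.173) below 0. ZNF146, a zinc finger protein, was the 1 of 453 ZNF genes called in the 28-library fit and rose by 0.85 ± 0.16 (adjusted p = 0.0456).

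**Figure D4:**
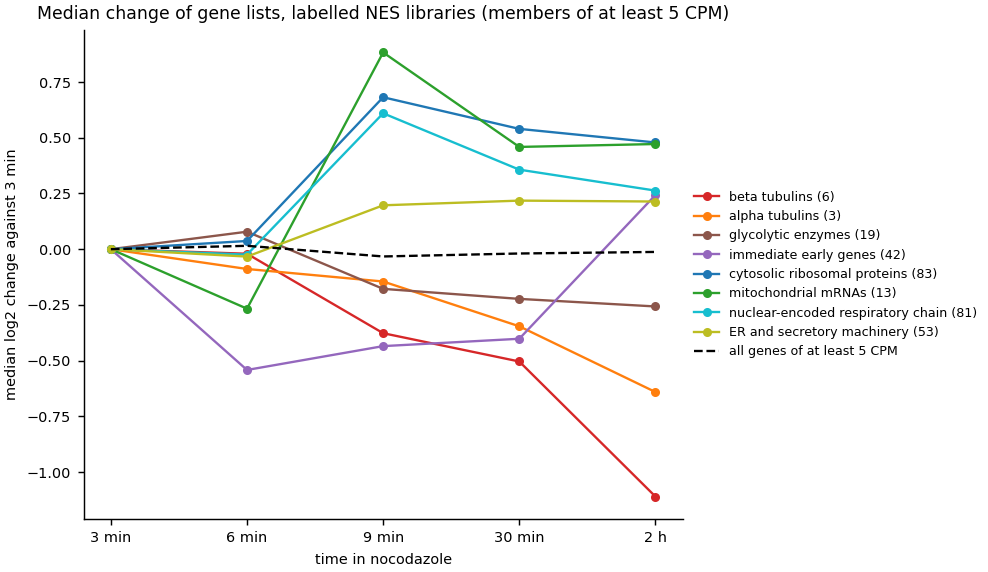
Median log2 change against 3 min at 6 min, 9 min, 30 min and 2 h for selected gene lists, over members of at least 5 CPM. The β-tubulins go down to -1.11 at 2 h, the immediate early genes lie at -0.54 at 6 min and 0.24 at 2 h, and the ribosomal protein genes lie at 0.68 at 9 min.

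The OMM libraries of the same times show which of these courses were shared between the constructs. The NES trend minus the OMM trend passed for 27 genes (0.138%), all of them higher for NES. DESeq2 called 299 higher and 24 lower, and a fit on the 20 labelled libraries 392 higher and 75 lower. The count was 17 without NES 3 min replicate 2, 15 without OMM 3 min replicate 2, and 12 when 2 libraries of low complexity, 1 of OMM at 2 h and 1 unlabelled, were left out. Of these, 24 had a falling OMM trend that passed by itself (0.744% of all genes had one), and 1, HSP90B1, a rising NES trend that did. For most of them the OMM level fell beside an NES level with little trend. The gene list of ER and secretory machinery, 53 genes, held 10 of the 27, and its median difference was 0.807, beside -0.0051 over all genes of at least 5 CPM. They were CALR, HSPA5, HSP90B1, CANX, PDIA3, P4HB, RPN1, RPN2, DDOST and HYOU1, which encode chaperones, disulfide isomerases and subunits of the oligosaccharyltransferase.

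ALDH18A1, a mitochondrial enzyme of proline synthesis, had 217 and 232 CPM at 2 h and 222 and 213 at 3 min in NES libraries, and 681 and 713 at 2 h and 2249 and 2127 at 3 min in OMM libraries. The NES libraries overlapped and the OMM libraries did not. Its NES trend was -0.02, its OMM trend -1.87, and the difference 1.85 ± 0.25 (edgeR's quasi-likelihood test, adjusted p = 0.00248). CALR, the ER chaperone calreticulin, had 528 and 528 CPM at 2 h and 446 and 489.6 at 3 min in NES libraries, and 1032 and 801 at 2 h and 2303 and 1952 at 3 min in OMM libraries (difference 1.53 ± 0.24, adjusted p = 0.00783). HLA-B, an MHC class I heavy chain, differed by 1.98 ± 0.39 (adjusted p = 0.0333), a call that was lost in 20 of 27 alternatives (adjusted p up to 0.539). DDOST differed by 1.56 ± 0.26 (adjusted p = 0.0113). PSAP, a lysosomal precursor, differed by 1.38 ± 0.20 (adjusted p = 0.00373). The NES trends of these 3 genes lay between -0.019 and 0.126.

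Of the 27 genes, HSP90B1 had a called rise in NES libraries, a call that was lost in 7 of 19 alternatives. HSP90B1 (ENSG00000166598), the ER member of the HSP90 family, had 510 and 534 CPM at 3 min, 477 and 505 at 6 min, 804 and 854 at 9 min, 747 and 796 at 30 min, and 639.8 and 844 at 2 h. All libraries from 9 min on lay above the earlier ones. Its NES trend was 0.67 ± 0.12 (adjusted p = 0.0164), its OMM trend -0.38 (adjusted p = 0.129) and the difference 1.05 ± 0.16 (adjusted p = 0.00651). HSPA5, the ER chaperone BiP, had 571 ± 22.1 CPM at 2 h and 391 ± 10.4 at 3 min in NES libraries (SD, n = 2 each). Its NES trend of 0.73 ± 0.17 did not pass in the 28-library fit (adjusted p = 0.107), and its OMM trend was -0.77 (adjusted p = 0.0212). RCN2, a calcium-binding protein of the ER, averaged 136 ± 7.74 CPM at 2 h and 72.1 ± 5.63 at 3 min (trend 1.14 ± 0.22, adjusted p = 0.0456). In unlabelled NES libraries, HSP90B1 had 1069 and 1331 CPM at 30 min and 1112 and 1118 at 3 min, above every labelled NES value. Of 53 ER genes, RCN2 and HSP90B1 rose in the 28-library fit, and 13 rose and 1 fell in the 10-library fit. Membrane and lysosomal proteins, 47 genes tested, had a median NES minus OMM difference of 0.841, and BSG, APP and PSAP were among those called.

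**Figure D5:**
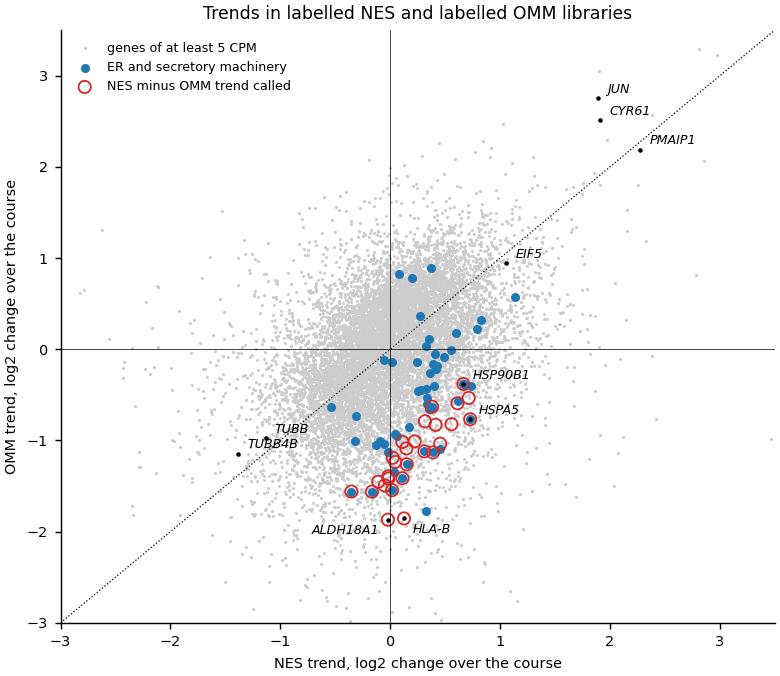
Trend over the course (log2) in labelled NES libraries (horizontal axis) and in labelled OMM libraries (vertical axis) for 11458 genes of at least 5 CPM, of which 92 lie beyond the axes; rings mark the 27 genes whose trends differed, filled blue points the ER list, and the dotted line equal trends. All 27 rings lie below 0 for OMM and to the right of the dotted line, while TUBB, TUBB4B, PMAIP1 and EIF5 lie near it and JUN and CYR61 above it.

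Changes beyond those without peroxide could be asked at 30 against 3 min only. The change in labelled minus that in unlabelled libraries passed for no gene in edgeR's quasi-likelihood test (811 had an unadjusted p under 0.05, and DESeq2 called 113). In unlabelled libraries alone 3 genes passed (0.0153%), EIF5 higher (0.0051%) and MT-RNR1 and MT-RNR2 lower (0.0102%), the same 3 that passed between 6 and 3 min in labelled libraries. That count was 0 in a fit on the 4 unlabelled libraries, 0 without the libraries of low complexity, 0 without replicate 2 of 30 min, 148 without replicate 1 of 3 min and 1036 without replicate 1 of 30 min. The count for the difference between labelled and unlabelled also moved with single libraries: it was 468 without unlabelled 30 min replicate 1 and 87 without unlabelled 3 min replicate 1. Unlabelled libraries at 2 h were not analysed here.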

How the data were processed

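Per the labels, RNA biotinylated by APEX2 was enriched, poly(A) selected and sequenced from a stranded kit. The authors deposited raw counts per gene for 60675 gene IDs. Trimmomatic, STAR, HTSeq, SAMtools, bedtools, DESeq2 and the build GRCh38 (hg38) are named in the submitters' processing notes, without versions or roles, and the strand setting of the counting is not given in the sources used here. Symbols for 57055 IDs came from GENCODE 29.

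All 28 nocodazole libraries (14 groups of 2) were fitted with edgeR 4.0.16 in R 4.3.3: TMM scaling, filterByExpr, a mean for each group, the quasi-likelihood F test and Benjamini-Hochberg adjustment over 19611 genes, with a threshold of 0.05. The trend used equally spaced scores for the 5 times. SE is the size of the log2 change over the root of F. As alternatives, DESeq2 1.42.0 took the place of edgeR, and RLE scaling that of TMM. Genes of low count were kept, or the replicate number entered as a block. Others were fits on the libraries of each comparison only, log2 of minutes, and leaving out the 2 h time or each library in turn. Another left out 2 libraries of low complexity (over 2% of the genes of at least 5 CPM without a count). A group that would lose both its libraries kept them. The unlabelled OMM libraries, with 2.97 to 16.3% of these genes without a count, therefore stayed in that fit. On simulated counts over 18738 genes the trend was called for 3% of genes changed 2-fold and 27% of those changed 4-fold, 100 genes each, with 2 unchanged genes called.

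Members and lists were chosen with earlier results of these data known. Genes were named by rule: up to 12 in each direction with the largest called trend, at least 5 CPM and separate 2 h and 3 min libraries; up to 4 per list with the smallest p; up to 6 with a called change at another time; up to 4 in each direction for the other contrasts; and 13 landmarks. Other genes named with values were chosen after their values were seen. Tables and figures used Python 3.11.15 with pandas 2.3.3, numpy 2.4.6 and matplotlib 3.10.9. Results for some withheld items are not reported here.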

Additional observations from a re-analysis of the deposited data

Results flagged for a closer look

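The NES and OMM trends differed for 27 genes by the test of the difference itself, in edgeR's quasi-likelihood fit over all 28 libraries. Those named by rule, or members of its lists, had the following NES minus OMM differences of the log2 trend. Among ER chaperones and glycosylation subunits, HSPA5 differed by 1.5, CALR by 1.53, DDOST by 1.56, HSP90B1 by 1.05 and CANX by 1.01. Among membrane proteins, HLA-B differed by 1.98 and APP by 1.49. The HLA-B call was lost in 20 of 27 alternatives. Among mitochondrial genes, ALDH18A1 differed by 1.85, MT-CO2 by 1.25 and MT-RNR2 by 1.11. Of the 27 genes, 24 also had an OMM trend called lower and 20 had an NES trend estimate above 0. No cause was tested.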

How the results depend on the processing

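The counts of called genes depended on the fit, and so did the calls of some named genes. Over 81 results for single genes and 1417 alternatives, 1156 stayed on the same side of the threshold, 169 lost the call, 92 gained it and 0 reversed. Results called in neither setting count as the same side, and a reversal means a call in the opposite direction. Estimates without a call could change sign, as in the trends of NR4A3 (-1.271 to 3.337) and TRIB1 (-0.096 to 1.549). DESeq2 called 262 genes for the trend, 212 for any change, 6, 82, 60 and 98 for 6, 9, 30 min and 2 h against 3 min, 185 for 9 against 6 min, 323 for the NES minus OMM trend, 113 for the labelled minus unlabelled change, 382 for unlabelled 30 against 3 min, and 1017 and 1110 for labelled against unlabelled at 3 and 30 min. With RLE size factors the trend called 48, any change 38 and 9 against 3 min 11. Without a filter on low counts the trend called 61, any change 96, 9 min 28, 30 min 10, 2 h 20, 9 against 6 min 54, NES minus OMM 63, labelled minus unlabelled 6 and unlabelled 30 against 3 min 21. Fitted on the libraries of the comparison only, the trend called 1472, any change 898, 6 min 47, 9 min 0, 2 h 10, NES minus OMM 467, and 9 against 6 min, unlabelled 30 against 3 min and both labelled against unlabelled contrasts 0 each. The 20 labelled libraries gave 942 for the trend. Leaving out the libraries of low complexity gave 0 at 9 min, 12 for NES minus OMM, 0 for unlabelled 30 against 3 min, 117 for labelled against unlabelled at 3 min and 5 for 9 against 6 min. Log2 of minutes gave 13 for NES minus OMM. The cause was not tested.

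Leaving out each library in turn, the trend called 6 to 39 genes (39 without replicate 1 of 9 min), any change 13 to 33, 6 min 2 to 3, 9 min 0 to 12, 30 min 0 to 1, 2 h 4 to 5, 9 against 6 min 2 to 21, NES minus OMM 15 to 39, labelled minus unlabelled 0 to 468, unlabelled 30 against 3 min 0 to 1036, and labelled against unlabelled 137 to 606 at 3 min and 32 to 1569 at 30 min. Same-numbered labelled NES libraries of different times did not pair: over 10 pairs of times their deviations correlated at -0.0845 to 0.124, and 1 pair exceeded 0.1. Pairing in the OMM and unlabelled groups was not checked. With the replicate block the trend called 10 genes, any change 14, NES minus OMM 26 and 9 against 6 min 10. The common biological coefficient of variation was 0.942 over 28 libraries, 0.605 over the 10 labelled NES libraries and 0.157 over those of 3 and 6 min, which limits what the shared fit could call.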
